A study of Homo sapiens with 9 samples.

Results

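The Krüppel-like factor (KLF) genes described here are KLF2, KLF4, KLF5, KLF6, KLF7, KLF9, KLF10, KLF11, KLF13 and KLF16. They were taken by symbol from both deposited count tables, 10 genes of the 18970 listed in each. Newly made RNA had been followed by SLAM-seq in cranial neural crest cells (CNCCs) made from H9 cells, a long-established line of human embryonic stem cells. All cells, those of the 0h group included, carried FKBP12-F36V, mNeonGreen and V5 fused to both SOX9 alleles at the carboxy terminus, so that the small molecule dTAGV-1 (500 nM) removes the SOX9 protein. The groups were 0h, 3h and 24h of dTAGV-1. The 0h samples are also labelled with dTAGV-1 at this dose, for a time of 0h, whereas the protocol describes DMSO as the vehicle. The groups had a labelled relative SOX9 level of 100% at 0h and 0% at the later times. Each group held 1 sample of each of 3 cultures, S9CC13_R6, S9CC47_R5 and S9CC47_R6, which are named after 2 clones (S9CC13 and S9CC47) and 2 differentiation batches (R5 and R6). A culture is therefore 1 clone in 1 batch, clone S9CC13 was present in batch R6 alone, and values below are listed in this order of cultures. Cells took up 4-thiouridine (100 uM) for 2 h, in the 3h group starting 1 h after dTAGV-1 and in the 24h group starting 22 h after it. Reads in which the labelled base is read as a T>C conversion stand for new RNA. The other reads (unconverted reads) hold RNA made before labelling and new RNA that shows no conversion, in parts that were not measured.

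KLF proteins are transcription factors with a carboxy-terminal run of zinc fingers that binds GC-rich and CACCC sequences, and the SP factors are their closest relatives. KLF2, KLF4, KLF5, KLF6 and KLF7 act mainly as activators and work with histone acetyltransferases such as EP300. KLF9, KLF10, KLF11, KLF13 and KLF16 bind the corepressor SIN3A through a short amino-terminal helix and are known mainly as repressors. Several KLF genes are quickly induced by signals, KLF10 and KLF11 by TGF-beta and KLF9 by glucocorticoids, and their transcripts are known for short lives. AU-rich stretches in the 3′ untranslated region (UTR), built around the pentamer ATTTA, are a known binding site of proteins that shorten the life of such transcripts.

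The 3′ UTR windows below show the AU-rich pentamers of KLF members with a high and with a low T>C share at 0h, the quantity described next. Each is the 30-base stretch of the canonical GENCODE 44 transcript with the most pentamers (the one nearest the 3′ end where several tie), written 5′ to 3′ on the strand of the gene in hg38, with each ATTTA in capitals. The windows lie in the last exon at chr10:3778791-3778820 (KLF6, minus strand), chr9:70384832-70384861 (KLF9, minus), chr2:10053938-10053967 (KLF11, plus), chr2:207080013-207080042 (KLF7, minus), chr15:31376342-31376371 (KLF13, plus) and chr19:1852418-1852447 (KLF16, minus).
KLF6: gtATTTAcaaatataacacaacaATTTAac
KLF9: agtttgcagatagATTTAgcacagtactca
KLF11: ttaccagcATTTAcctttATTTAaatgatg
KLF7: gcagctgcgtATTTAATTTAactctggttt
KLF13: tcccccATTTAaaaaaggtcATTTAgtcaa
KLF16: gcctcatccttgtATTTAattaattaaaca
Windows of KLF6, KLF11, KLF7 and KLF13 hold 2 pentamers and those of KLF9 and KLF16 hold 1.

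Total reads per library ranged from 16955633 to 28782678 and T>C reads from 3130673 to 5475800, and the share of T>C reads in a library lay between 15.9% and 21.3%. All 10 neural crest markers of the list used reached 1 CPM (reads scaled to equal library totals) in at least 1 library. Their summed CPM lay at 4161 to 4169 at 0h, 4984 to 5165 at 3h and 6236 to 6516 at 24h. In T>C reads DESeq2 called 3 of the 10 higher at 3h and 6 of the 10 at 24h (none lower). SOX9 itself (735.7 to 1862 CPM across libraries), the homeobox gene MSX1 (594.2 to 1553 CPM), NR2F1 (884.0 to 1095 CPM) and TFAP2B (516.3 to 756.7 CPM) held much of this sum. SOX9 new RNA rose by 0.77 on the log2 scale at 3h (SE 0.0809, adjusted p = 7.24e-18) and by 1.15 at 24h. dTAGV-1 acts on the protein, so these reads do not check its depletion. MSX1 rose by 0.70 and 1.20 at these times and TFAP2A by 0.32 and 0.67, while TWIST1 (0.44), ALX1 (0.36) and TFAP2B (0.25) were called at 24h. From 3h to 24h SOX9, MSX1 and TWIST1 were called higher. NR2F1 (0.042), NR2F2 (0.17), PRRX1 (0.25) and PDGFRA (-0.19) were not called at 24h. Of 7 pluripotency markers, 2 reached 1 CPM, LIN28A (241.3 to 374.3 CPM across libraries) and DPPA4 (34.2 to 44.6 CPM). NANOG, ZFP42, POU5F1 and PRDM14 stayed at or under 0.313 CPM in every library, and TDGF1 had no reads. The summed levels of 350.1 to 414.4 CPM at 0h and 281.5 to 306.1 CPM at 24h were thus nearly all LIN28A and DPPA4. Among the pluripotency markers LIN28A was called lower in T>C reads at both later times. No epithelial (0 of 5) and no muscle (0 of 4) marker reached 1 CPM in any library, and 1 of 6 endothelial and 1 of 5 neural progenitor markers did. SOX1, HES5 and MYOG had no reads. The part of these marker changes in the KLF values was not tested. In these bulk libraries fewer cells of a type and less RNA per cell cannot be told apart.

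KLF2 and KLF4 were nearly silent in these cells. KLF2, which shear stress induces in endothelium, had 4, 2 and 6 total reads at 0h, 0, 1 and 0 at 3h, and 3, 2 and 3 at 24h. KLF4, a reprogramming factor, had 0, 0 and 1 total reads at 0h, 0, 0 and 5 at 3h, and 0, 1 and 0 at 24h. Neither passed the filter of 1 CPM in 3 libraries. A count of 0 allows up to 3 reads, which in the 9 libraries is 0.104 to 0.177 CPM, so the read counts of both genes lie at or close to this limit. The other 8 members passed. Total reads across the 9 libraries ranged from 0.660 to 1.68 CPM for KLF5, 42.9 to 52.4 for KLF6, 2.88 to 7.64 for KLF7, 1.46 to 3.82 for KLF9, 2.92 to 8.91 for KLF10, 10.6 to 16.3 for KLF11, 24.4 to 39.6 for KLF13 and 11.4 to 30.1 for KLF16. These 3′ end counts were not divided by transcript length. In hg38 these genes span 73054976 to 73077541 on chromosome 13 (KLF5), 207074137 to 207173856 on chromosome 2 (KLF7), 70384604 to 70414657 on chromosome 9 (KLF9) and 31326835 to 31435665 on chromosome 15 (KLF13), and the others are placed below.

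The T>C share of a gene is the percent of its total reads that carry a conversion. At 0h it separated the members widely. KLF9 had a share of 67.1% ± 4.86, KLF11 67.0% ± 2.53, KLF6 65.4% ± 6.56 and KLF10 63.9% ± 4.80 (SD, n = 3 each). KLF7 followed with 52.5% ± 6.99 and KLF5 with 49.5% ± 15.9, while KLF13 had 36.3% ± 1.53 and KLF16 26.0% ± 2.66. Over 9991 tested genes with at least 50 total reads in each library the median was 26.9% with quartiles of 16.7% and 40.3%. KLF9, KLF11, KLF6 and KLF10 lay above 97.3% or more of these genes, KLF7 above 89.9%, KLF5 above 87.0%, KLF13 above 68.3% and KLF16 above 48.1%. KLF9, KLF11, KLF6 and KLF10 differed among themselves by less than the larger SD of each pair, as did KLF7 and KLF5.

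Behind these shares stood unequal numbers of reads. KLF6 rested on 3123 total reads at 0h, with a share of 59.5% in S9CC13_R6 (Wilson 95% interval 56.4% to 62.6%), 72.5% in S9CC47_R5 (69.2% to 75.5%) and 64.2% in S9CC47_R6 (61.6% to 66.7%). The intervals of S9CC13_R6 and S9CC47_R5 do not overlap, so cultures differed by more than counting error. KLF9 rested on 132 total reads and KLF5 on 62, of which KLF5 had a share of 32.1% in S9CC13_R6 (interval 17.9% to 50.7%) and 63.2% in S9CC47_R6 (41.0% to 80.9%). KLF5 cannot be placed more closely at this depth. PCR copies were not marked by molecular identifiers, so intervals cover counting error only.

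**Figure D1:**
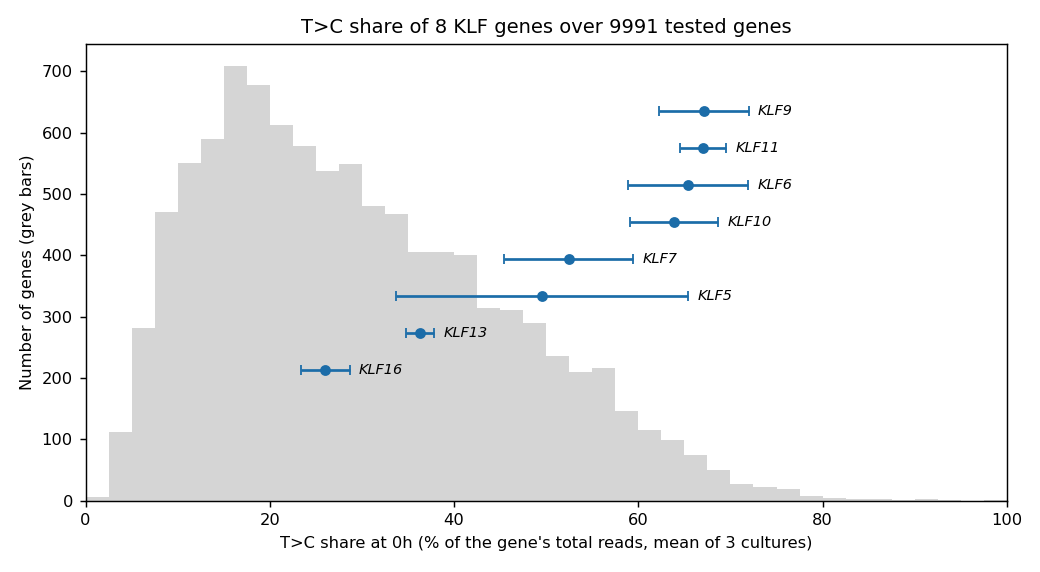
T>C share at 0h of the 8 KLF genes that passed the filter (points, mean of 3 cultures; bars, SD) over a histogram of the shares of 9991 genes with at least 50 total reads in each library (grey, left axis in genes; the height of the points has no meaning). KLF9, KLF11, KLF6 and KLF10 sit at 63.9% to 67.1%, in the right tail of the histogram, and KLF16 at 26.0% near its median of 26.9%; KLF5 and KLF9 had fewer than 50 reads in some libraries and are not in the histogram.

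The density of ATTTA in the canonical 3′ UTR differed between members with high and low shares. KLF13 (0.893 per kb) and KLF16 (0.971 per kb) had the lowest densities, and the other 6 members that passed the filter had 1.69 (KLF6) to 3.03 (KLF5) pentamers per kb. KLF9 had 2.52, KLF11 2.58, KLF10 2.23 and KLF7 2.83 per kb. Over 9538 genes with a 3′ UTR of at least 100 bases, 77.6% held an ATTTA on the sense strand. With these genes split into 4 bins of like size by T>C share at 0h, the median density was 0.595 per kb in the lowest bin, then 1.80 and 2.16, and 2.59 in the highest. The longer form TATTTAT, which contains the pentamer, occurred once each in KLF5, KLF6, KLF7, KLF11 and KLF16 and not in KLF9, KLF10 or KLF13, against 38.8% of all 9538 UTRs. A T-rich transcript end offers more bases to convert. The last 250 bases were 17.6% T in KLF6, 24.4% in KLF7, 23.6% in KLF16 and 35.6% to 39.2% in KLF5, KLF9, KLF10, KLF11 and KLF13, with a median of 32.4% over all genes. The part of T content in the shares was not tested. These matches describe the annotated transcript, whose end need not be the one sequenced here.

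**Figure D2:**
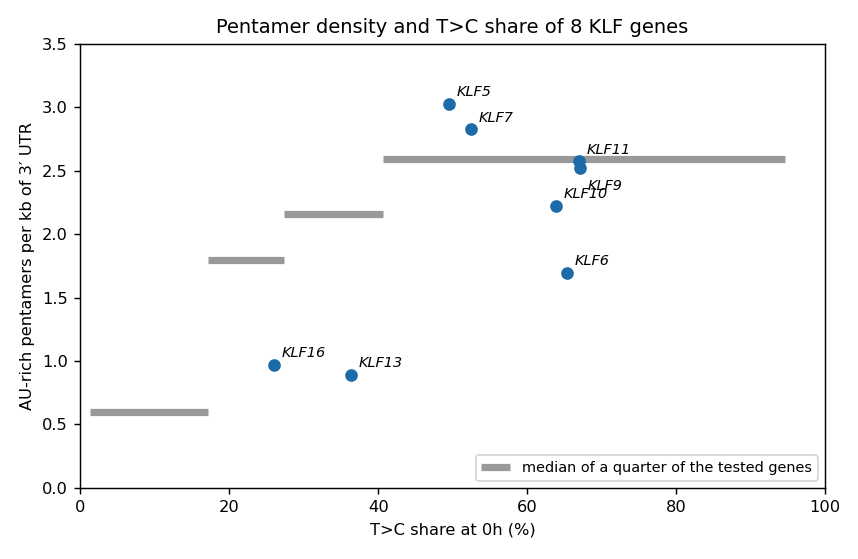
ATTTA pentamers per kb of canonical 3′ UTR (vertical axis) against the T>C share at 0h in percent (horizontal axis) for 8 KLF genes (points); 9538 tested genes were split by share into 4 bins of like size, and each grey line spans the shares of a bin at its median density. KLF13 and KLF16 lie lowest, at 0.893 and 0.971 per kb, and the other 6 lie between 1.69 and 3.03.

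Whether loss of SOX9 changed the new RNA of these genes was asked by comparing T>C reads between times, with DESeq2 fitted on all genes and a gene called at an adjusted p-value under 0.1. KLF10 was the only member called. It rose at 24h in T>C reads and in total reads, while none of the 8 members was called at 3h. At 3h, 1.79% of the 12037 genes tested in T>C reads were called and 1.89% of the 11710 tested in total reads, and 0 of 8 members is near this background. At 24h, 4.98% of genes were called in T>C reads (2.38% higher) and 15.0% in total reads (7.11% higher), against 1 of 8 members in each. Between 24h and 3h, where 1.14% of genes were called in T>C reads and 5.39% in total reads, no member was called. At an unadjusted p-value under 0.05, KLF11 was the only member at 3h in T>C reads and KLF13 in total reads, against 882 and 962 of all genes tested, and between 24h and 3h there was none in T>C reads and KLF10 in total reads. edgeR called 0 members in these 4 comparisons as well. At 24h against 0h, the unadjusted DESeq2 p-value was under 0.05 for KLF10 and KLF16 in T>C reads and for KLF10 and KLF13 in total reads. Of all genes tested, 1633 and 2791 were under it. Fitted changes of the 8 members in T>C reads were positive in 8 of 8 at 3h (median log2 fold change 0.31, all tested genes -0.011) and in 5 of 8 at 24h (median 0.23, all genes 0.0015). The share of all genes with a positive fit was not counted. Each of the 8 members was lower in at least 1 culture at 3h, and they share the same libraries.

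**Figure D3:**
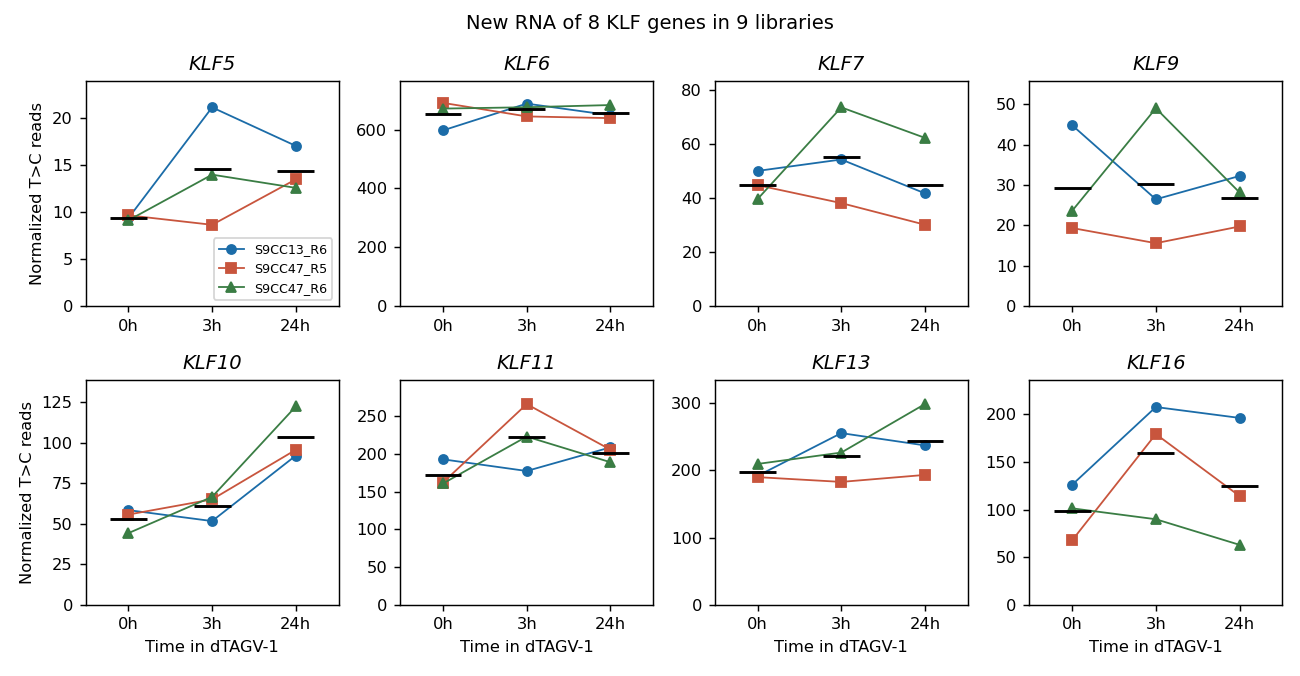
Normalized T>C reads (counts divided by DESeq2 size factors, axes from 0) of 8 KLF genes at 0h, 3h and 24h of dTAGV-1, joined by culture, with black bars at group means. KLF10 at 24h lies above all its 0h and 3h libraries (92.0 to 122.2 against 44.2 to 66.5), KLF6 stays between 597.0 and 690.5, and the cultures of KLF16 run in different directions.

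KLF10 encodes the TGF-beta-inducible repressor also known as TIEG1, and lies on chromosome 8 from 102648784 to 102655725 (hg38, minus strand) with 4 exons in the canonical transcript. Its normalized T>C reads were 58.3, 55.6 and 44.2 at 0h, 51.6, 65.0 and 66.5 at 3h, and 92.0, 95.5 and 122.2 at 24h. The lowest library at 24h was above the highest of the earlier times, and all 3 cultures rose. For 3 libraries against 3, the smallest 2-sided exact permutation p is 0.1. The share of all genes without overlap, the background for such statements here and below, was not counted. KLF5, which was not called, also had no overlap between 24h and 0h in T>C reads. The log2 fold change of KLF10 at 24h was 0.86 (SE 0.285, DESeq2 adjusted p = 0.0598), a fold of 1.82. At 3h it was 0.27 (SE 0.281, adjusted p = 0.988), with 2 cultures higher and S9CC13_R6 lower. These values rest on 39 to 165 T>C reads per library.

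Normalized total reads of KLF10 were 94.9, 93.7 and 65.1 at 0h, 90.9, 84.0 and 116.6 at 3h, and 148.8, 140.9 and 188.3 at 24h. Again the 24h libraries stood above all others, with a log2 fold change of 0.80 (SE 0.243, adjusted p = 0.0142). The difference between 24h and 3h was 0.59 in T>C reads (SE 0.303, adjusted p = 0.614) and 0.55 in total reads (SE 0.256, adjusted p = 0.271), and neither was called, although all 3 cultures were higher at 24h and the groups did not overlap. With the culture as a replicate block and no surrogate variable the difference in total reads was called (0.72, DESeq2 adjusted p = 0.0629). Batch alone, without a surrogate variable, called it too (0.72, adjusted p = 0.0777). The block with a surrogate variable did not (0.27, adjusted p = 0.964). Leaving out any 1 culture ended the call in T>C reads at 24h, with log2 fold changes of 0.72 to 0.92, and so did the replicate block with a surrogate variable (0.81, adjusted p = 0.294). The block alone kept it (0.97). Over all genes, calls in T>C reads at 24h fell from 599 to 64, 259 and 93 without S9CC13_R6, S9CC47_R5 or S9CC47_R6. In total reads leaving out S9CC13_R6, S9CC47_R5 or S9CC47_R6 ended the call as well, with 0.36, 0.88 and 0.62. Calls over all genes in total reads fell from 1751 to 163, 788 and 328 in the same order.

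Unconverted reads of KLF10 moved in the same direction without a call. Unconverted KLF10 reads were 37.6, 35.5 and 20.1 at 0h, 44.01, 21.1 and 49.4 at 3h, and 55.4, 39.2 and 55.2 at 24h. They were higher at 24h in 3 of 3 cultures, but the log2 fold change of 0.62 (SE 0.414) had a DESeq2 adjusted p of 0.410. Unconverted reads at 24h and 0h did not overlap for KLF10, KLF9 and KLF13, nor did those of KLF13 at 3h and 0h. None of the 8 members was called in unconverted reads at 3h, where 1.10% of 11529 genes were called, or at 24h, where 12.1% were. The unadjusted p-value was under 0.05 for 2 members at 3h, KLF9 and KLF13, and for none at 24h, against 865 and 2446 of the 11529 genes. The T>C share of KLF10 was 59.6%, 63.0% and 69.0% at 0h and 63.0%, 73.0% and 72.1% at 24h. The share over all reads rose too, from 18.5%, 20.1% and 18.8% to 19.8%, 20.4% and 21.3%. The median over 9991 genes went from 26.9% to 28.0%. The ratio of T>C to unconverted reads changed by 0.25 on the log2 scale (SE 0.454, adjusted p = 0.9997), so a change in the ratio was not detectable at this depth. None of the 8 members was called for this ratio, where 0.324% of 12037 genes were called at 3h and 0.0166% at 24h. None of the 8 had an unadjusted p-value under 0.05 either, against 516 genes at 3h and 531 at 24h.

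**Figure D4:**
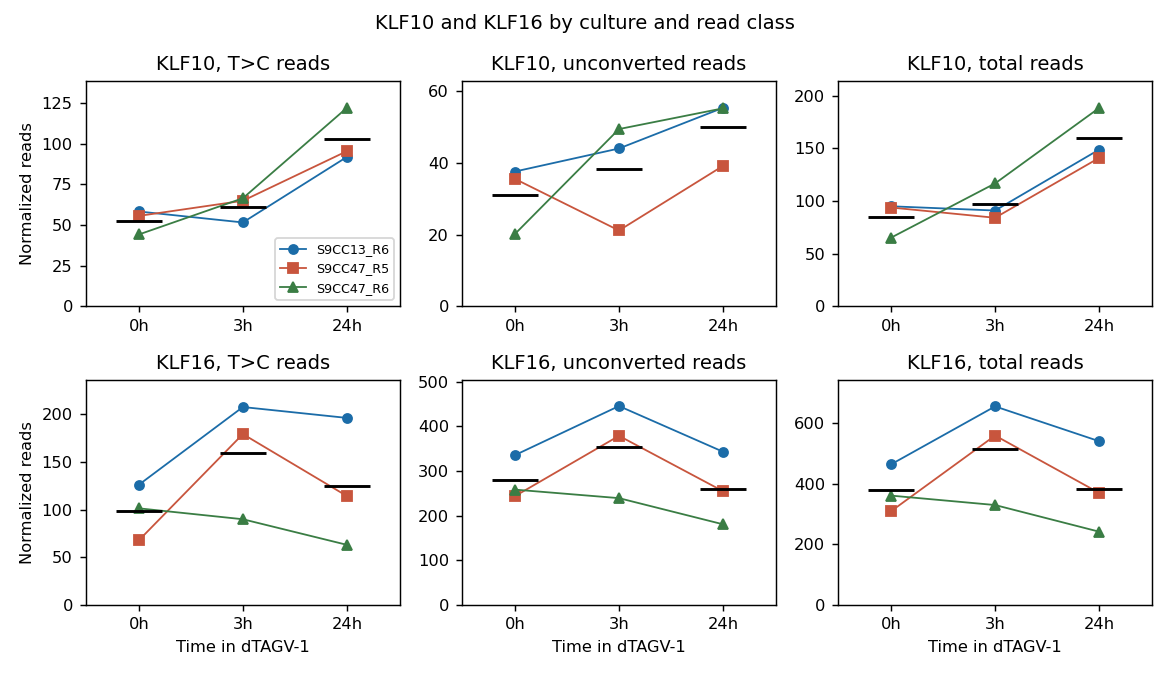
Normalized T>C, unconverted and total reads of KLF10 (top) and KLF16 (bottom) by time in dTAGV-1, joined by culture, with black bars at group means and axes from 0. All 3 cultures of KLF10 end higher at 24h than at 0h in each class of reads, whereas KLF16 rises at 3h in S9CC13_R6 and S9CC47_R5 and falls in S9CC47_R6.

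KLF11 (TIEG2), the closest relative of KLF10, is on chromosome 2 from 10042849 to 10054836. It had normalized T>C reads of 192.8, 162.0 and 160.7 at 0h, 177.3, 265.9 and 222.9 at 3h, and 208.6, 205.6 and 188.9 at 24h. At 3h it was higher in both S9CC47 cultures and lower in S9CC13_R6, and the log2 fold change of 0.38 (SE 0.187, unadjusted p = 0.0447 in DESeq2) had an adjusted p of 0.665. At 24h all 3 cultures were higher, but the groups overlapped and the fitted change was 0.20 (SE 0.195, adjusted p = 0.761). The last exon of KLF11 overlaps an annotated antisense lncRNA that the count tables do not list, and the sources used here do not state whether counting used strand.

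KLF9, a glucocorticoid and thyroid hormone target, had normalized T>C reads of 44.8, 19.3 and 23.6 at 0h, 26.5, 15.6 and 49.0 at 3h, and 32.2, 19.7 and 28.2 at 24h. The cultures moved in both directions at each time, and the 95% intervals of the log2 fold change were -0.84 to 0.92 (3h) and -1.14 to 0.72 (24h). Its T>C share was 69.4%, 61.5% and 70.5% at 0h and 35.1%, 46.2% and 61.8% at 3h, lower in 3 of 3 cultures. The median share over 9991 genes also fell, from 26.9% to 24.7%. The share over all reads fell from 18.5% to 15.9% in S9CC13_R6 and from 20.1% to 18.1% in S9CC47_R5. In S9CC47_R6 it rose from 18.8% to 19.5%. The fitted change of its ratio of T>C to unconverted reads at 3h was -1.02 (SE 0.63, DESeq2 adjusted p = 0.999), on 26 to 68 total reads per library at those times. Of 7 glucocorticoid targets 6 were tested. In T>C reads DESeq2 called none at 3h, with 1 at an unadjusted p-value under 0.05 and 1 called by edgeR. FKBP5, a chaperone of the receptor, and TSC22D3 (GILZ) rose at 24h, by 0.51 with an SE of 0.168 (adjusted p = 0.0608) and by 0.42 with an SE of 0.131 (adjusted p = 0.0412).

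KLF13, which regulates the chemokine gene CCL5 in T cells, had normalized T>C reads of 191.7, 189.9 and 209.5 at 0h, 255.3, 182.8 and 226.4 at 3h, and 237.0, 193.2 and 298.6 at 24h. S9CC47_R5 stayed near its starting level and the other cultures were higher at both times. Total KLF13 reads were 537.0, 545.6 and 568.7 at 0h, 697.0, 543.0 and 776.3 at 3h, and 665.6, 585.8 and 836.3 at 24h. The log2 fold change of total reads was 0.32 at 3h (SE 0.117, unadjusted p = 0.00699 in DESeq2, adjusted p = 0.232). At 24h it was 0.25 with an SE of 0.123 and an adjusted p of 0.195, and neither was called. The 24h and 0h groups of KLF13 did not overlap in total reads.

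KLF16 is on chromosome 19 from 1852399 to 1863579, minus strand, and differed more between cultures than between times. Its normalized T>C reads were 126.1, 67.7 and 101.3 at 0h, 207.7, 179.3 and 89.9 at 3h, and 196.3, 114.2 and 63.0 at 24h. S9CC13_R6 and S9CC47_R5 were higher at both later times and S9CC47_R6 fell below its 0h value at both. Across times KLF16 was higher in S9CC13_R6 than in S9CC47_R6 by a log2 fold change of 1.01 in T>C reads (SE 0.28, adjusted p = 0.0368) and 0.82 in total reads (SE 0.186, adjusted p = 0.00166). These cultures share batch R6 and differ in clone, with 1 culture per clone, so that clone and culture cannot be told apart. It was the only member called between these cultures, where 1.32% of 12037 genes were called in T>C reads, and no member was called between S9CC47_R5 and S9CC47_R6, where 0.690% were.

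The fitted KLF16 change in T>C reads at 24h was 0.69 (SE 0.279, adjusted p = 0.184), not called, and it moved with the covariates. Without the surrogate variable it was 0.35, with the culture as a replicate block 0.20, and without S9CC13_R6 and a surrogate variable it turned to -0.045. edgeR called it (0.69, adjusted p = 0.0471), as did the filter on a mean of at least 20 counts (0.85, adjusted p = 0.0734). At 3h KLF16 was not called (0.44, SE 0.268, adjusted p = 0.829), but it was without S9CC47_R6 and a surrogate variable (1.06, adjusted p = 0.0970). From 3h to 24h KLF16 was lower in 3 of 3 cultures while the fitted value was 0.25 (SE 0.301), and -0.37 without the surrogate variable. The last exon of KLF16 also overlaps an antisense lncRNA that is not listed in the count tables.

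**Figure D5:**
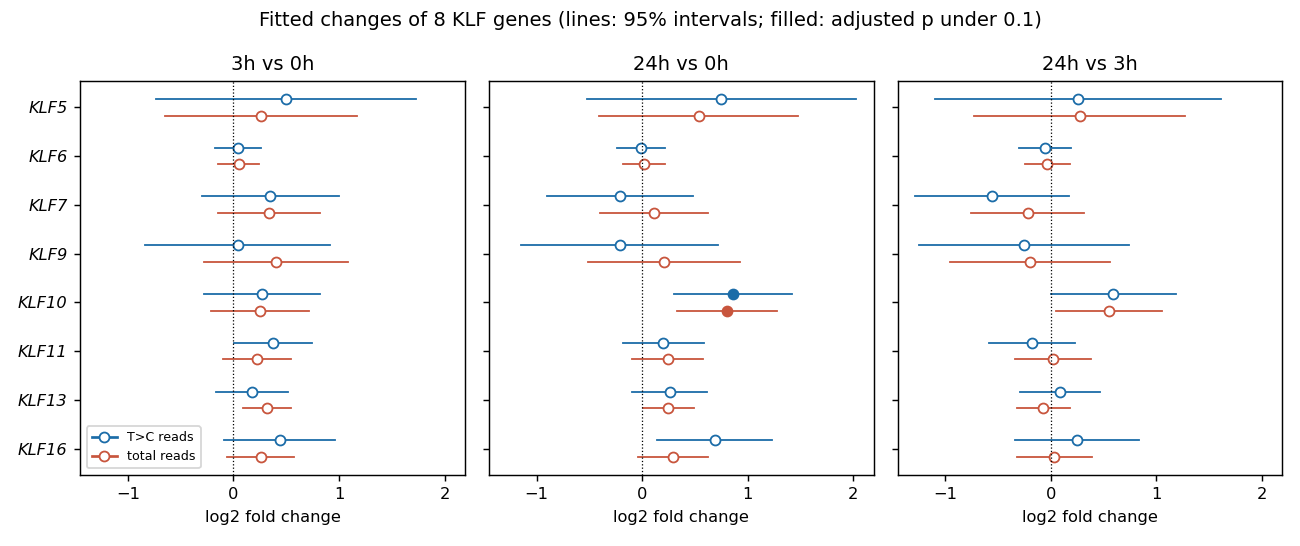
Log2 fold changes of 8 KLF genes from the DESeq2 fits of T>C reads (blue) and total reads (red) for the 3 comparisons of times; lines are 95% intervals and filled points have an adjusted p under 0.1. Only KLF10 at 24h against 0h is filled, at 0.86 in T>C and 0.80 in total reads, and KLF6 has the shortest intervals, which include 0 in each panel.

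Among the activator-type members KLF6 was the steadiest. KLF6, a widely expressed factor induced on tissue injury, is on chromosome 10 from 3775996 to 3785281. Its normalized T>C reads were 597.0, 690.5 and 671.1 at 0h, 688.0, 644.4 and 675.6 at 3h, and 648.5, 638.6 and 683.1 at 24h. The groups overlapped at every time. Log2 fold changes were 0.045 at 3h (95% interval -0.17 to 0.26) and -0.0095 at 24h (-0.23 to 0.21).

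KLF7, which regulates axon growth genes in neurons, had normalized T>C reads of 50.0, 44.7 and 39.6 at 0h, 54.2, 38.1 and 73.5 at 3h, and 41.7, 30.1 and 62.2 at 24h. S9CC47_R6 was higher at both later times, S9CC13_R6 at 3h alone and S9CC47_R5 at neither. From 3h to 24h all 3 cultures were lower, by a fitted log2 fold change of -0.55 (SE 0.373, adjusted p = 0.789). KLF5, a growth-linked factor of epithelia and smooth muscle, had normalized T>C reads of 9.38, 9.67 and 9.14 at 0h, 21.2, 8.66 and 14.0 at 3h, and 17.1, 13.5 and 12.6 at 24h. KLF5 was higher at 24h in 3 of 3 cultures, and its 24h and 0h groups did not overlap. On 8 to 18 T>C reads per library, its log2 fold change of 0.75 (SE 0.651) had a DESeq2 adjusted p of 0.716.

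The genes closest to KLF10 over the 9 libraries were TMEM132C (Pearson r = 0.976), CEP170 (r = 0.970) and JKAMP (r = 0.967), among 8675 genes that averaged 50 or more normalized T>C reads. These correlations are descriptive, since the libraries share cultures and the best of many genes were taken. Genes picked for likeness to KLF10, which rose at 24h, tend to rise then too. Their changes at 24h, given next, are therefore not separate results. In T>C reads TMEM132C rose by 0.46 at 24h (adjusted p = 0.0482), CEP170, a centrosome protein, by 0.36 (adjusted p = 0.0395) and JKAMP, a membrane protein that binds JNK, by 0.89 (adjusted p = 0.0854).

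Other genes of the KLF system were mostly without calls. Of 16 relatives (the remaining KLF genes and SP1 to SP9) 15 were listed and 7 tested, KLF3, KLF12, KLF15, SP1, SP2, SP3 and SP4, and none was called in T>C or total reads, with a median log2 fold change of 0.11 at 3h and 0.22 at 24h in T>C reads. In T>C reads 0 relatives at 3h and 1 at 24h had an unadjusted p-value under 0.05 in DESeq2, and edgeR called 0 and 1. KLF14, SP8 and SP9 had no reads. None of 11 cofactors, which include SIN3A, SIN3B, HDAC1, HDAC2 and EP300, was called in T>C reads (median -0.011 at 24h; 2 had an unadjusted p-value under 0.05 at 3h and 2 at 24h, and edgeR called 0), and in total reads at 24h 1 was higher and 1 lower. None of the 7 genes of the MAP3K3, MAPK7 and MEF2 route, which induces KLF2 and KLF4 in endothelium, was called in either class of reads by DESeq2 or edgeR, and none had an unadjusted p-value under 0.05 against 0h.

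Of 12 genes known as KLF targets, 10 were tested in T>C reads. CDKN1C, the cell cycle inhibitor p57, had 92.0 ± 15.6, 187.8 ± 40.1 and 283.6 ± 42.4 normalized T>C reads at 0h, 3h and 24h (SD, n = 3). The fitted rise was 0.98 (SE 0.193) at 3h with an adjusted p of 8.17e-05, and 1.70 (SE 0.196) at 24h with an adjusted p of 2.53e-15, on the log2 scale. CDKN1C was the only target that DESeq2 called at 3h, where edgeR called 2 of the 10. SMAD7, an inhibitor of TGF-beta signalling that KLF10 is known to repress, rose at 24h from 15.0 ± 3.11 to 40.7 ± 9.44, by 1.34 (SE 0.47, adjusted p = 0.0914). TAGLN, a smooth muscle actin-binding protein, fell at 24h from 39.9 ± 16.9 to 23.2 ± 16.8, a fitted change of -1.34 (SE 0.444, adjusted p = 0.0617). The SD ranges of TAGLN overlap, and the fit adjusts for batch and 1 surrogate variable. Fits with other covariates are not given for TAGLN or SMAD7. In all, 2 of 10 targets were called higher and 1 lower at 24h. SMAD7 and KLF10 both rose in T>C reads at 24h, and neither was called at 3h. A link between the 2 changes was not tested.

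KLF genes are often grouped with the immediate-early genes, of which 11 of 14 were tested in T>C reads. At 3h JUN rose by 0.71 on the log2 scale (SE 0.188) with an adjusted p of 0.0129. JUNB rose by 1.23 (SE 0.325) with an adjusted p of 0.0139, while IER3, a survival factor, fell by 0.90 (SE 0.109, adjusted p = 1.09e-13). At 24h 4 were higher, JUN by 1.68, EGR1 by 1.20, JUNB by 0.97 and IER2 by 0.28, and IER3 was lower by a log2 fold change of -0.88. From 3h to 24h JUN, EGR1 and IER2 rose. Normalized T>C reads of JUN were 113.5 ± 11.6 at 0h and 384.1 ± 42.8 at 24h, and those of EGR1 were 85.3 ± 17.3 and 187.6 ± 75.3 (SD, n = 3).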

How the data were processed

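SLAM-seq libraries of 9 samples were grouped by the time in their titles. The authors deposited raw counts per gene for total reads and for T>C reads, without normalization. Per the authors' methods, read 1 was trimmed with skewer and of poly(A), and mapped and counted with slamdunk on hg38; strand handling and the counted 3′ regions were not given in the sources used here. All 9 value columns of each table were used.

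Symbols were matched to GENCODE release 44 (18451 of 18970), RefSeq symbols (11) or RefSeq synonyms (390). Genes of protein-coding type that reached 1 CPM in 3 samples entered DESeq2 1.42.0 (R 4.3.3) with time, batch and 1 surrogate variable (sva 3.50.0), without independent filtering, and the Wald test called genes whose p-value, adjusted by Benjamini and Hochberg's method, was under 0.1. Total reads minus T>C reads gave unconverted reads, and a read type by time term tested their ratio. Cultures were compared with time as a covariate. Normalized reads are counts over size factors. Wilson 95% intervals came from scipy 1.17.1. Scripts were tested on simulated data. Nothing in the labels states that samples came from separate wells or days beyond clone and batch, so p-values measure the spread between these samples.

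The members and lists were chosen with earlier results of these data known. The text names all members, every listed gene called in T>C reads, and the 3 genes most like a called member in log2(normalized T>C reads + 1). Genes named among those without calls (KLF3, SIN3A and others) only show what a list holds. Cultures pair the samples through the clone and batch in the titles: deviations from group means correlated by 0.131 on average in T>C reads (0.017 to 0.286 over 9 pairs) and by 0.273 in total reads (-0.057 to 0.606). Alternatives were edgeR 4.0.16 with TMM, TMM factors in DESeq2, the culture as a replicate block with and without a surrogate variable, no surrogate variable, no covariates, other filters, an adjusted p-value under 0.05, 6 samples per contrast, size factors of total reads, and each culture left out.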

Additional observations from a re-analysis of the deposited data

How the results depend on the processing

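With T>C reads at 24h, where 1 member (KLF10) was called, the count was 0 at an adjusted p-value under 0.05, 0 with the replicate block plus a surrogate variable, 2 (KLF10 and KLF16) with edgeR and 2 with a mean of at least 20 counts. The replicate block alone kept 1, with KLF10 at 0.97. Of 12037 genes tested, 599 were called in the main fit, 722 with the block, 354 with block plus surrogate variable and 968 with edgeR. The filter on a mean of at least 20 counts called 534 of 10154. Without S9CC13_R6, S9CC47_R5 or S9CC47_R6, calls over all genes were 64, 259 and 93. Each culture left out gave 0, with KLF10 between 0.72 and 0.92, or between 0.71 and 1.14 without a surrogate variable, an alternative chosen after seeing the data because few residual degrees of freedom remain otherwise. KLF16, not called, then turned to -0.045 without S9CC13_R6, in a range of -0.045 to 0.75 when 1 culture was left out. At 3h the counts without 1 culture ran from 0 to 1 in T>C and in total reads, the call being KLF16 without S9CC47_R6 (1.06, adjusted p = 0.0970 in DESeq2, T>C reads; 0.67, adjusted p = 0.0617, total reads). With total reads at 24h the count of 1 became 0 with the replicate block plus a surrogate variable (KLF10 0.58, adjusted p = 0.357) and ran from 0 to 1 without 1 culture, with KLF10 between 0.36 and 0.88, or between 0.62 and 1.08 without a surrogate variable. From 3h to 24h in total reads the count of 0 became 1 (KLF10) with the replicate block (0.72, adjusted p = 0.0629), without a surrogate variable (0.72, adjusted p = 0.0777) and without covariates (0.72, adjusted p = 0.0665). Of 11710 genes tested in total reads at 24h, DESeq2 called 1751 in the main fit and 831 with the block plus a surrogate variable. Without S9CC13_R6, S9CC47_R5 or S9CC47_R6 it called 163, 788 and 328. Total reads at 24h against 3h gave 631 calls in the main fit and 1546 with the block. They gave 901 without a surrogate variable and 858 without covariates. At 3h, 91 genes were called in T>C and 155 in total reads without S9CC47_R6 and a surrogate variable. The cause of these changes in calls was not tested. With both the block and a surrogate variable, KLF10 was not called from 3h to 24h in total reads (0.27, DESeq2 adjusted p = 0.964). The replicate block without a surrogate variable changed no other call of a member. KLF10 kept its direction in every alternative run. Shares at 0h moved by less than 1 SD of the cultures when pooled or without 1 culture. KLF5 and KLF9, with 15 to 68 total reads per library, allow only wide intervals.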
